A study of Mus musculus with 2 samples.

Results

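The regions described here are the H3K27me3 peaks of MEL cells that lie in gene deserts, the long stretches of chromosome without a protein-coding gene. A peak was taken when its midpoint lay more than 100 kb from the body of the nearest protein-coding gene on mouse chromosomes 1 to 19, in the GENCODE annotation of GRCm38 (the build that mm10 names). By that rule 1998 of the 37152 autosomal peaks, and of the 38300 peaks in all, were desert peaks. The rule used position alone, so the number, strength and clustering of these peaks were free to vary. Their replicate overlap was less free, because the authors derived the list from each replicate's own list and a pooled list.

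The study mapped histone H3 trimethylated at lysine 27 by chromatin immunoprecipitation and sequencing in MEL, an immortalised mouse erythroleukaemia line described in its labels as an analogue of the human leukaemia line K562. It has 1 group of 2 biological replicates with no treatment named, and nothing in the sources says whether they came from separate cultures. Each replicate has its own peak list, called against 1 control that both share, and a pooled list was called on both together. The list used here is the authors' replicated list, which they derived from those 3 lists, so its overlap with a replicate's own list is not independent evidence.

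Polycomb repressive complexes lay down H3K27me3 and bind it in turn, which lets the mark spread over broad stretches of silent chromatin. It is best known from the promoters and bodies of silent developmental genes. Gene deserts hold few coding genes, but those beside developmental regulators often carry distant enhancers, as the deserts on either side of the HoxD cluster do in the limb. Others consist mostly of sequence with no known function.

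Sequences from the groups of peaks with the most covered bases are given first, to show what kind of DNA lay under them. For each of the top 4 groups, the peak with the highest signal value is shown, from the NCBI sequence of GRCm38, forward strand, 5′ to 3′, at most 300 bases, with every CG in capitals because CG-rich sequence is the best known feature of Polycomb target promoters in mammals. They lie at chr14:54096300-54096599 in the T-cell receptor alpha and delta locus, at chr2:74023481-74023780 between Atp5g3 and Lnpk, at chr11:18743312-18743603 between Etaa1 and Meis1, and at chr2:75329892-75330191 between Mtx2 and Hnrnpa3.
T-cell receptor locus: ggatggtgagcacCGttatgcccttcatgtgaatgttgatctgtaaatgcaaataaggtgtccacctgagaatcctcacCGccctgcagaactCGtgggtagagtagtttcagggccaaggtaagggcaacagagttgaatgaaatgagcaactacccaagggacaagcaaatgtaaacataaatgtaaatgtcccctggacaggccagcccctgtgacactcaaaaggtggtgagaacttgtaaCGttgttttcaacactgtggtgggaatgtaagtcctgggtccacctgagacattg
Atp5g3 side of HoxD: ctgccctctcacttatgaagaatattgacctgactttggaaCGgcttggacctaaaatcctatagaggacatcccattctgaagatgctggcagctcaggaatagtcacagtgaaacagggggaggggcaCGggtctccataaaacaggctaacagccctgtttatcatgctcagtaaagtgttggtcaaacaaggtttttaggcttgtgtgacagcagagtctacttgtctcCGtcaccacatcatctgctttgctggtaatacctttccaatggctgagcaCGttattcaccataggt
Beyond the 3′ end of Meis1: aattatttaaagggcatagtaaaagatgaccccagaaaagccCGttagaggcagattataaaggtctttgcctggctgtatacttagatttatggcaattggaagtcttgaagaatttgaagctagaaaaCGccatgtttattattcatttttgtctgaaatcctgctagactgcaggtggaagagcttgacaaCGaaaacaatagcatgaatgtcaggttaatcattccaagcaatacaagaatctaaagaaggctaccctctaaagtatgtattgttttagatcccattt
Hnrnpa3 side of HoxD: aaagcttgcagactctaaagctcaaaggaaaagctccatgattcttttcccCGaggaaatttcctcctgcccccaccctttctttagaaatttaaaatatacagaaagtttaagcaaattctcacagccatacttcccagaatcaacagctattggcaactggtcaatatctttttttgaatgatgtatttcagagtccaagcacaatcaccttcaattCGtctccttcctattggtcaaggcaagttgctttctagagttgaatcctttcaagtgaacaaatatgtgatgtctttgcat
The T-cell receptor and Atp5g3-side sequences hold 4 CG dinucleotides each, the one beside Meis1 3 and the Hnrnpa3-side one 2. Their GC content was 47.7%, 46.7%, 36.3% and 38.3% in that order. All 4 peaks were called in both replicates. The peak of the T-cell receptor locus had a signal value of 6.76 in replicate 1 and 4.14 in replicate 2, the Atp5g3-side peak 5.41 and 4.95, the peak beside Meis1 6.79 and 4.67, and the Hnrnpa3-side peak 4.51 and 5.36. The signal value is the authors' strength score for a peak, and its definition is not stated.

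Desert peaks were scarce. Deserts made up 27.7% of the autosomal sequence without assembly gaps (663 of 2396 Mb), yet held 5.38% of the replicated peaks. The density was 3.01 peaks per Mb in deserts and 20.3 per Mb elsewhere, a ratio of 0.149. The peaks were compared with 1000 circular shifts along each chromosome, which keep their number, width and spacing and move them together relative to the genes. The shifts placed 9681 peaks in deserts on average, with 95% of them between 8323 and 11016 and the lowest at 7581. The observed 1998 was 0.206 of that mean (two-sided permutation p = 0.0020, the smallest that 1000 shifts can give). Covered bases gave the same picture: 621499 bp of peaks lay in deserts against 3277184 bp over the shifts, a ratio of 0.190 with the same p.

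Each replicate's own list showed the deficit. Replicate 1 had 4463 of 68822 autosomal peaks in deserts (6.48%), 0.247 of its mean over shifts, and replicate 2 had 8033 of 103621 (7.75%), 0.292 of its mean. Both lists had a permutation p of 0.0020. The share was thus higher in each replicate's own list than in the replicated list, and highest in the longest list. Desert sequence was 38.9% soft-masked as repeats, against 31.4% of the other autosomal sequence, and its GC content was 39.3% against 43.0%. The part of sequence composition and of read mapping in the deficit was not tested. Depth is unknown because the lists hold no read counts. Absence of a call says nothing about the mark at that base.

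The density of peaks fell with each step away from genes beyond 25 kb. The replicated list held 15.6 peaks per Mb within gene bodies, 31.8 per Mb in the first 10 kb beside them and 32.6 per Mb from 10 to 25 kb. It then held 25.3 per Mb from 25 to 50 kb and 15.1 per Mb from 50 to 100 kb. Within deserts it held 6.49 per Mb from 100 to 200 kb (1279 peaks), 3.58 per Mb from 200 to 300 kb (435 peaks) and 1.77 per Mb from 300 to 500 kb (252 peaks). Beyond 500 kb lay 8.43% of autosomal sequence and 32 peaks, which is 0.158 per Mb. Beyond 500 kb the replicates' own lists held 0.767 peaks per Mb (replicate 1) and 1.95 per Mb (replicate 2). Every list had the same order of distance classes from 25 kb outwards. Just outside the limit of the rule, the 303 peaks from 90 to 100 kb had a median width of 260 bp, and just inside it the 212 peaks from 100 to 110 kb had one of 288 bp. The median signal value was 3.54 in both, and 70.0% and 74.5% overlapped peaks of both replicates, against 72.4% of all autosomal replicated peaks.

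**Figure D1:**
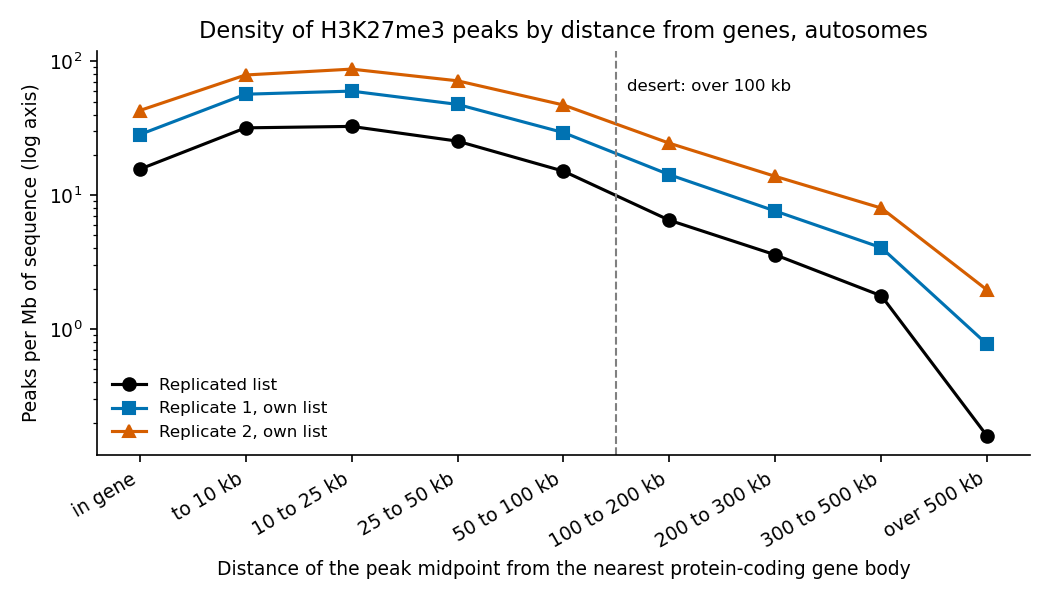
H3K27me3 peaks per Mb of gap-free autosomal sequence (log axis) against the distance of the peak midpoint from the nearest protein-coding gene body, for the replicated list and each replicate's own list; the dashed line marks the desert limit of 100 kb. All 3 lists decline from 25 kb outwards, the replicated list from 25.3 per Mb at 25 to 50 kb to 0.158 per Mb beyond 500 kb.

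Among the members the distance to the nearest protein-coding gene ran from 100.1 to 1162 kb, with a median of 165 kb and quartiles of 124 and 240 kb. More than 200 kb away lay 719 members (36.0%). The 3 members beyond 1 Mb all lay on chromosome 2 and close to each other. The farthest, chr2:8671820-8671979, was 1162 kb from Celf2, an RNA-binding splicing regulator. Next came chr2:8657348-8657606, 1148 kb from the same gene. The third, chr2:8732351-8732662, was 1125 kb from Gata3, a transcription factor of T-cell development. All 3 overlapped peaks of both replicates.

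The deficit held on every autosome, to very different degrees. On all 19 the desert share of replicated peaks was below the desert share of sequence, and the same was true in each replicate's own list. The desert share of peaks was highest on chromosomes 16, 13 and 14, at 16.6%, 14.7% and 12.5%. Relative to the desert share of sequence it was highest on chromosomes 16, 13 and 2, with ratios of 0.535, 0.492 and 0.427. On chromosome 16 replicate 1 gave 15.2% and replicate 2 gave 16.8%. At the other end, 3 of 1385 peaks on chromosome 7 (0.217%) and 20 of 2113 on chromosome 1 (0.947%) were desert peaks. Next came 33 of 1978 on chromosome 5 (1.67%) and 12 of 661 on chromosome 8 (1.82%). By number, chromosomes 2 (356 peaks), 11 (270) and 16 (217) together held 42.2% of all members. Chromosome 11 carried 6098 of the replicated peaks, the most of any autosome, and without it the count stood at 0.205 of the shifts.

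**Figure D2:**
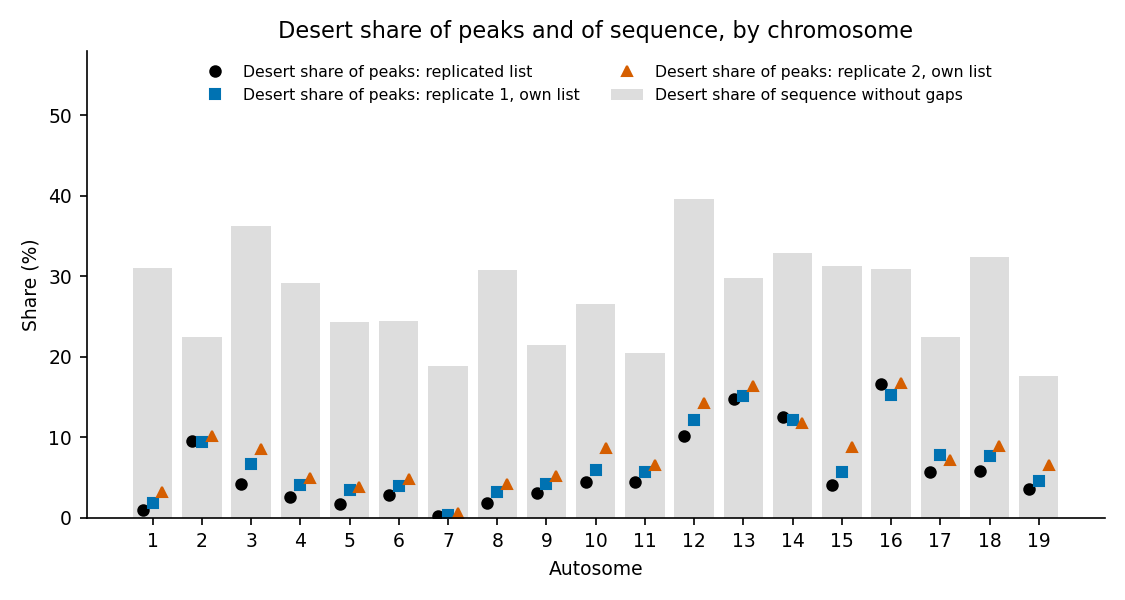
For each autosome, the share of its sequence that is desert (bars) and the share of its H3K27me3 peaks that are desert peaks (points, replicated list and each replicate's own list), in percent. Every point lies below its bar, with chromosome 7 lowest at 0.217% and chromosome 16 highest at 16.6% in the replicated list.

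The marking that did occur was packed into a small set of deserts. Of 1371 autosomal deserts, 228 (16.6%) held at least 1 replicated peak and 72 of these held only 1. Deserts without a replicated peak made up 83.0% of desert sequence, and 745 deserts had no peak in either replicate's own list. By contrast 50 deserts with 10 or more peaks held 1481 members (74.1%), and 18 deserts held 50% of them. The 10 richest, with 0.938% of desert sequence, held 792 peaks (39.6%). In these 10 the covered share of bases ran from 2.78% to 9.41%, against 0.0937% of all desert sequence.

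**Figure D3:**
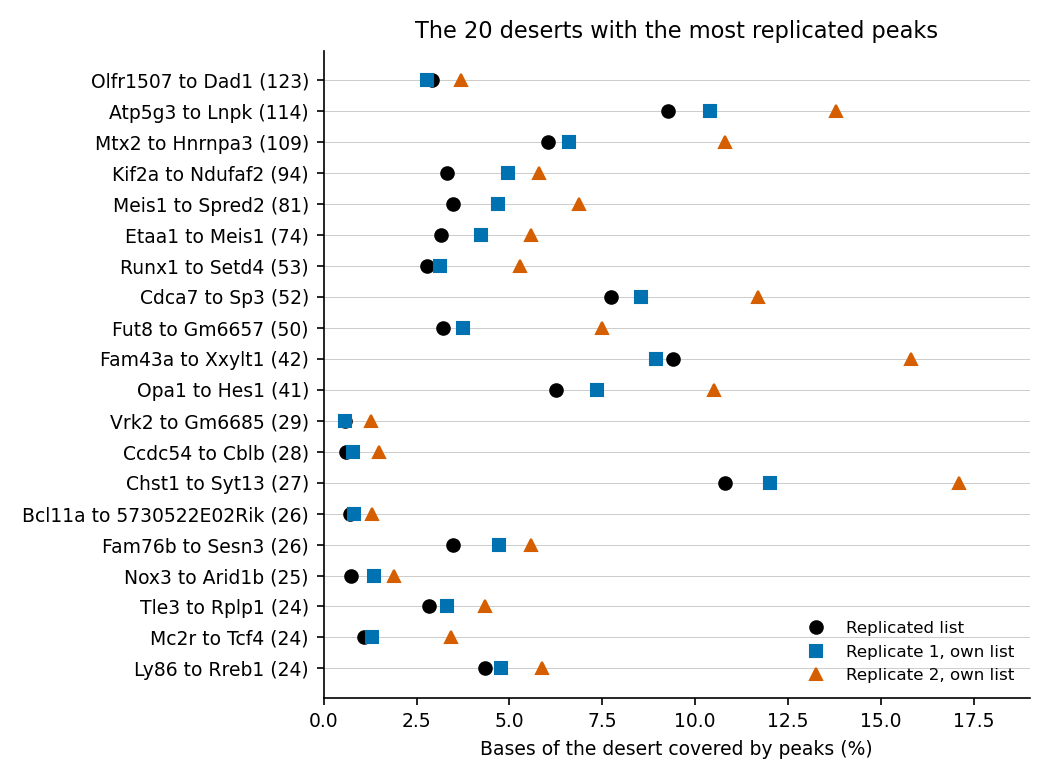
The 20 deserts with the most replicated peaks (number in parentheses), named by the protein-coding genes on either side, with the percent of desert bases covered in the replicated list and in each replicate's own list. Both replicates cover each of them, from 0.576% to 12.0% of bases in replicate 1 and from 1.28% to 17.1% in replicate 2.

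The deserts on either side of HoxD ranked next to the top by number of peaks. HoxD is a cluster of homeobox genes that pattern the limbs and trunk, and it sits between Lnpk and Mtx2 on chromosome 2. On the Lnpk side, the desert of chr2:74011327-74420290 between Atp5g3 (a subunit of mitochondrial ATP synthase) and Lnpk (lunapark, a protein of the endoplasmic reticulum) held 114 peaks. They covered 9.27% of its bases, and the replicates' own lists covered 10.4% (replicate 1) and 13.8% (replicate 2). On the Mtx2 side, the desert of chr2:74978432-75559260 between Mtx2 (metaxin, of the mitochondrial outer membrane) and Hnrnpa3 (a nuclear RNA-binding protein) held 109 peaks over 6.04% of its bases. There replicate 1 covered 6.61% and replicate 2 covered 10.8%.

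Taken from gene to gene, the interval from Atp5g3 to Lnpk was 8.52% covered, and that from Mtx2 to Hnrnpa3 5.46%. The interval from Lnpk to Mtx2, which holds HoxD itself, was 3.06% covered with 22 peaks, less than both flanks. Replicate 1 gave 9.77%, 3.51% and 6.20% in the order of the chromosome, and replicate 2 gave 12.9%, 5.04% and 9.74%, so the cluster interval was the lowest in each. Within that interval little of the replicated list lay on the Hoxd genes. No 10 kb bin from 0 to 90 kb past the start of Hoxd13 was more than 2.67% covered. The bins from 100 to 150 kb, beyond Hoxd1, were 4.76% to 22.6% covered. Among the Hoxd gene bodies only that of Hoxd3 held replicated bases (0.602%). No base of the bodies of Atp5g3, Lnpk, Mtx2 or Hnrnpa3 was covered in the replicated list or in either replicate's own list. Between them the marking was uneven: 1 group of 53 peaks at chr2:74014200-74097739, nearest to Atp5g3, was 23.4% covered (21.9% in replicate 1, 24.5% in replicate 2). Groups hold desert peaks only, and marking went on outside the desert. The 10 kb bins from 710 to 660 kb before the start of Hoxd13, nearer to Atp5g3, were 6.84% to 31.6% covered in the replicated list. On the far side a group of 45 peaks at chr2:75297763-75434020 was 11.1% covered (11.2% and 17.0%), and one of 24 peaks at chr2:75156959-75200091 was 17.8% covered (13.7% and 22.7%). Both far-side groups overlapped the annotated long non-coding gene 2600014E21Rik.

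**Figure D4:**
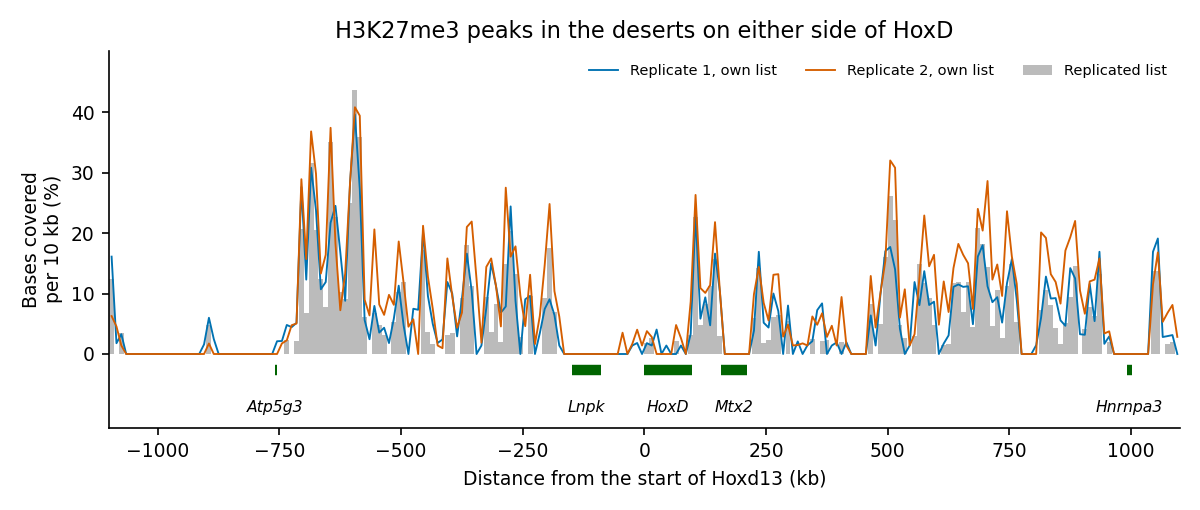
Percent of bases covered by H3K27me3 peaks in bins of 10 kb on either side of HoxD, against the distance from the start of Hoxd13 in kb; grey bars are the replicated list, lines are each replicate's own list, and green bars mark gene bodies. Coverage reaches 43.6% in the tract nearest to Atp5g3 and lies at 0 over Lnpk and Mtx2 in the replicated list.

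Another marked desert of chromosome 2, chr2:72586894-72836426, lies between Cdca7, a MYC-responsive cell cycle gene, and Sp3, a zinc finger transcription factor, and held 52 peaks. They covered 7.72% of its bases (8.54% in replicate 1, 11.7% in replicate 2). Its densest group, chr2:72589544-72609990, was 42.7% covered by 14 peaks, the highest share of the 10 groups described. It includes the widest desert peak, of 2032 bp. The replicates' own peaks covered 33.1% and 35.6% of that group. The bodies of Cdca7 and Sp3 carried no peak in any of the 3 lists.

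Meis1 was flanked by marked deserts on both sides. Meis1 encodes a homeodomain cofactor of HOX proteins that acts in blood stem cells and leukaemia. The desert beyond its 3′ end, chr11:18053876-18779816, held 74 peaks over 3.15% of its bases (4.24% in replicate 1, 5.59% in replicate 2). The desert upstream of it, chr11:19118986-19824374, held 81 peaks over 3.49% of its bases (4.68% and 6.86%). The gene body between them held no peak in any of the 3 lists, and none lay within 5 kb of its start. The densest 10 kb bin of the whole stretch lay 20 to 30 kb upstream of that start, too close to be a desert, and was 57.0% covered (57.7% and 49.7%).

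On the 3′ side, 50 of the peaks formed 1 group at chr11:18694601-18772785, 107 kb from the gene, that was 20.5% covered (20.9% in replicate 1, 27.5% in replicate 2). It overlapped 2 annotated long non-coding genes, Gm12023 and Gm28401. The groups hold desert peaks only, so its distance from the gene is not an unmarked gap. The 10 kb bins from 230 to 140 kb downstream of the start, between desert and gene, were 6.93% to 20.3% covered in the replicated list. Upstream, a group of 39 peaks at chr11:19217437-19303321, 198 kb from the gene, was 14.4% covered (17.1% and 18.7%). In that group 35 of 39 peaks (89.7%) overlapped peaks of both replicates, the highest share of the 10 groups, where 72.4% of all autosomal replicated peaks did.

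The desert with the most peaks was a desert only by the wording of the rule. The stretch of chr14:52595750-54135478 between the olfactory receptor gene Olfr1507 and Dad1 (a subunit of the oligosaccharyltransferase complex) holds the T-cell receptor alpha and delta locus, whose gene segments the annotation does not class as protein-coding. It held 123 peaks over 2.93% of its bases (2.77% in replicate 1, 3.70% in replicate 2), nearly all towards Dad1. A group of 57 peaks at chr14:53989217-54099254, across Trdv3 and Trdv4, was 20.5% covered (19.3% and 22.1%). Another of 34 peaks at chr14:53833130-53875522, across Trav19 and Trav20, was 30.2% covered (23.5% and 30.9%). In all 124 members (6.21%) lay within 100 kb of an immunoglobulin or T-cell receptor segment. With such segments counted as genes, a setting chosen after seeing the data, 1874 members remained and the count was 0.195 of the shifts.

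**Figure D5:**
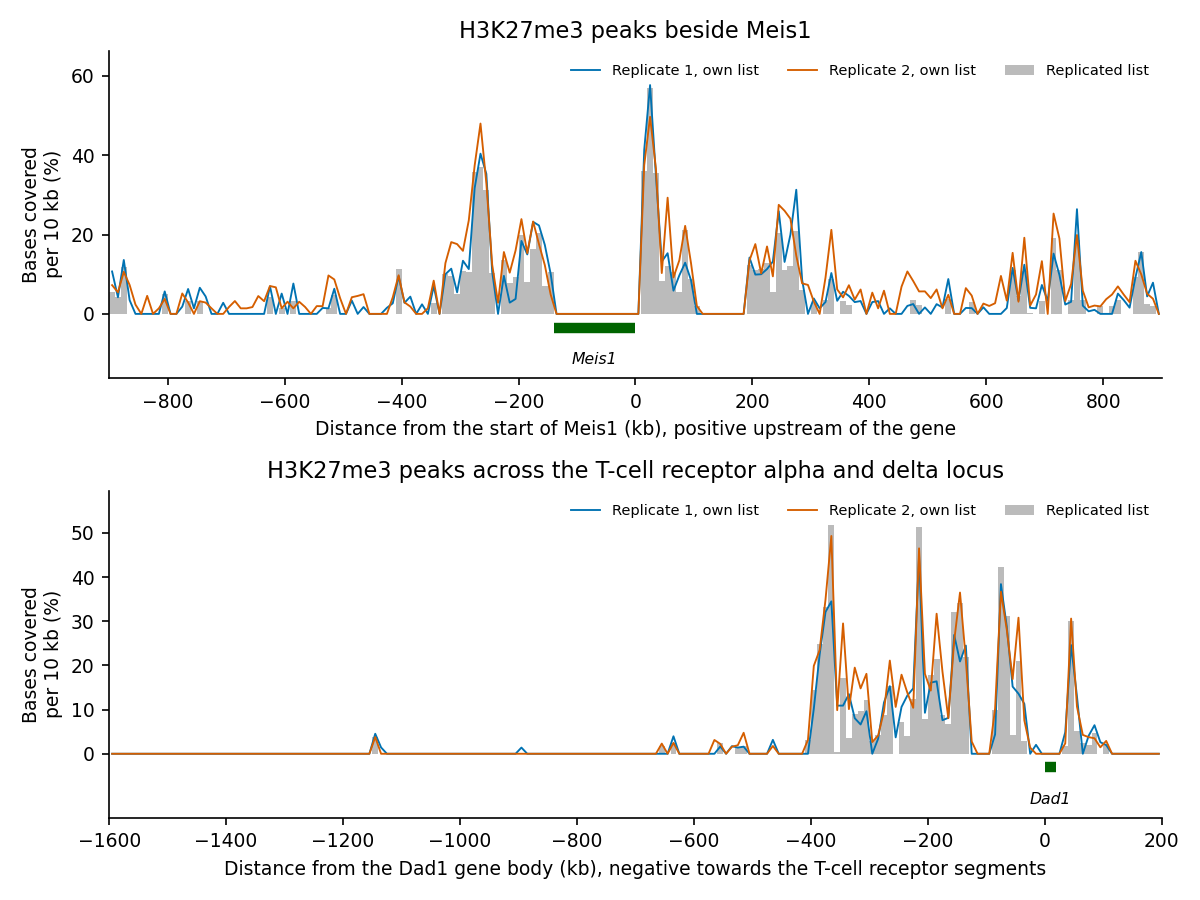
Percent of bases covered by H3K27me3 peaks in bins of 10 kb beside Meis1 (upper panel, distance from its start in kb, positive upstream) and across the T-cell receptor alpha and delta locus (lower panel, distance from the Dad1 gene body in kb); grey bars are the replicated list, lines each replicate's own list, green bars gene bodies. Coverage is 0 over the body of Meis1 and reaches 57.0% upstream of it, and the receptor locus reaches 51.8% on the side of Dad1.

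Chromosome 16 held 3 of the 11 deserts with the most peaks. The desert from Runx1 (a master regulator of blood formation) to Setd4 (a SET-domain methyltransferase) held 53 peaks over 2.78% of its bases (3.13% in replicate 1, 5.29% in replicate 2). Setd4 was the nearest gene of 47 of them and Runx1 of 6. Its main group, chr16:93342337-93391346, lay 192 kb from Setd4 and 516 kb from Runx1, and only 11 of its 26 peaks (42.3%) overlapped peaks of both replicates, the lowest share of the 10 groups. The desert of chr16:30702798-30855143 from Fam43a to Xxylt1, a xylosyltransferase that acts on Notch, held 42 peaks over 9.41% of its bases (8.95% and 15.8%). The desert of chr16:29754885-29964383 between Opa1, a fusion protein of the inner mitochondrial membrane, and Hes1, a transcriptional repressor downstream of Notch, held 41 peaks over 6.24% (7.36% and 10.5%).

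On chromosome 13 the desert of chr13:107122127-107902714 between the kinesin gene Kif2a and Ndufaf2, an assembly factor of respiratory complex I, held 94 peaks. They covered 3.31% of its bases (4.97% in replicate 1, 5.79% in replicate 2), and none of the 10 groups with the most bases lay in it. A short desert of 99.8 kb on chromosome 2, between Chst1, a sulfotransferase, and Syt13, a synaptotagmin, held 27 peaks over 10.8% of its bases (12.0% and 17.1%). Of the genes that flank the 10 groups, Chst1 and Syt13 were the only ones with a replicated peak in the body (4.03% and 1.96% of bases).

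The strongest single members lay in 4 different deserts. The peak with the highest signal value, 6.63, was chr12:77851789-77853729, 1941 bp wide and 341 kb from Gm6657. It had signal values of 9.0 in replicate 1 and 6.58 in replicate 2, and lies in the desert from Fut8, a fucosyltransferase, to Gm6657, which held 50 peaks over 3.21% of its bases. The next by −log10 p was chr3:66411783-66412904, of 1122 bp and 116 kb from Veph1, with 7.21 and 6.58. The third was chr13:34492645-34493670, of 1026 bp and 135 kb from Pxdc1, with 6.31 and 6.18. After it came chr11:19277918-19278402, 259 kb upstream of Meis1, with 4.07 and 6.54. Replicate 1 was higher in the first 3 and lower in the one beside Meis1.

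Few genes beside deserts had desert peaks. Of 2326 protein-coding genes that border a desert, 297 (12.8%) were the nearest gene of at least 1 member and 52 (2.24%) of 10 or more. The gene lists below are selections and do not hold every gene of a class. Among 44 listed homeobox genes there were 3, each with over 10 peaks. These were Meis1 with 106, Six2 (a kidney progenitor factor) with 13 and Lhx1 (a LIM-homeodomain factor) with 11. Among 27 Forkhead, Sox, T-box and Gata genes there were 4, Sox2 with 2 peaks and Sox5, Gata3 and Tbr1 with 1 each. Of 49 other listed developmental factors 5 were nearest to a member, led by Hes1 with 31 and Bcl11a, the repressor of fetal globin genes, with 26. Next were Runx1 with 6 and Nr2f1 with 3.

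Of 12 blood and erythroid genes that border a desert, 6 were nearest to a member, against 12.8% of all such genes. Besides Bcl11a and Runx1, which both lists hold, Bach2 had 2 peaks and Cebpb had 1. Signalling ligands gave 4 of 30, with Vegfa at 4 peaks and Chrd, Fgf10 and Pdgfd at 1 each. Cadherins gave 2 of 29 (Dsc3 and Cdh8, with 1 peak each). Guidance and synaptic adhesion genes gave 7 of 70 (Neo1 and Tenm2 with 6 peaks each, Plxna1 and Plxnc1 with 4 each). A list of channel and serotonin receptor genes gave 5 of 63, led by the channel gene Kcnj2 with 8 peaks. Among these 5 were also the serotonin receptor genes Htr2a, with 7 peaks, and Htr1a, with 1, which do not encode channels. Olfactory receptors gave 1 of 8, vomeronasal receptors 0 of 18, Zfp genes 3 of 35 and housekeeping genes 3 of 15 (20.0%). These shares describe the lists and were not tested, and the nearest gene of a peak is not shown to be its target. The genes nearest to the most members, Dad1 (122), Meis1 (106) and Atp5g3 (74), were set by the tracts described above.

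Desert peaks stood close together, though less so than other autosomal peaks. The median gap to the next peak was 747 bp for desert peaks and 526 bp for the others. A neighbour within 3 kb was found for 71.0% of desert peaks and 81.0% of the others. No neighbour within 100 kb was found for 66 desert peaks (3.30%) and for 1.72% of the others. Joined within 3 kb, the members formed 962 domains, of which 585 were single peaks and 11 spanned 10 kb or more. The largest by number held 31 peaks, the longest ran over 31933 bp, and 70.7% of members lay in a domain with another. Joined within 10 kb there were 623 groups, and the 10 described held 358 members (17.9%) and 20.8% of their bases.

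Members were somewhat narrower than other peaks and had lower −log10 p and q values, at the same median signal value. Peaks are not replicates, so these differences were not tested. The median width was 265 bp in deserts and 279 bp elsewhere, and widths of 1000 bp or more were found for 13 members (0.651%) and for 1.89% of other peaks. The median signal value was 3.54 in both sets, with means of 3.54 and 3.64. The median −log10 p was 3.58 against 4.05 and the median −log10 q was 0.533 against 0.909. A −log10 q of 2 or more was reached by 135 members (6.76%), against 10.9% of all autosomal replicated peaks and 11.1% of those outside deserts. In replicate 1 it was reached by 24.5% of desert peaks and 31.2% of others, and in replicate 2 by 7.74% and 12.4%. The median width was 171 bp against 183 bp in replicate 1 and 170 bp against 183 bp in replicate 2, so both replicates had the same order.

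Within chromosomes the order was less even. Of the 17 autosomes with 20 or more members, the mean −log10 p was lower in desert peaks on 16, but the median was lower on 8. The mean width was lower on 13 and the median width on 10. Chromosome 11, which held 6098 of the peaks and 4.43% of them in deserts, had a median −log10 p of 4.41 outside deserts and 3.82 within. On chromosome 14 the order was turned, with 4.41 in deserts and 3.58 elsewhere. Chromosome 14 holds the T-cell receptor tract, and the part of that tract in the turned order was not tested.

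Replicate overlap of the members was near that of all peaks. Peaks of both replicates' own lists overlapped 1376 members, 68.9% (exact 95% interval 66.8 to 70.9%), against 72.4% of all autosomal replicated peaks and 72.6% of those outside deserts (72.1 to 73.1%). Only replicate 1 had a peak at 205 members (10.3%), only replicate 2 at 410 (20.5%), and neither at 7 (0.350%). The intervals cover counting error only and treat peaks of 1 domain as independent. The desert share was lower than that of other peaks on 12 of 17 autosomes, with the widest gap on chromosome 15 (55.7% against 76.5%). On chromosome 14 it was higher (78.0% against 70.0%). Replicate 1 peaks covered 58.4% of the bases of members and replicate 2 peaks 70.1%, against 63.6% and 72.4% for the other peaks.

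The gap was wider in the replicates' own lists, before the authors' selection. Of replicate 1's desert peaks 34.6% overlapped a replicate 2 peak, against 45.6% of its other peaks. Of replicate 2's desert peaks 19.5% overlapped a replicate 1 peak, against 30.7%. Put the other way, deserts held 4.99% of replicate 1 peaks with a partner and 7.70% of those without, and 5.05% and 8.90% in replicate 2. Desert peaks were also sparser and weaker, and the part of density and strength in the gap was not tested. Across the 1376 members in both lists the signal values of the replicates correlated weakly (Pearson r 0.14, Spearman rho 0.13). The correlation was weak for the other autosomal peaks too (0.23 and 0.19). These are descriptions over peaks that share their libraries and control.

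The sequence under the members was nearer to desert sequence than to other peaks in GC content. GC made up 40.6% of the bases of desert peaks, 39.3% of desert sequence, 43.1% of the bases of other peaks and 43.0% of other autosomal sequence. The members were lower in mean GC than other peaks on 18 of 19 autosomes. CG dinucleotides numbered 7.68 per kb in desert peaks, against 6.07 per kb in desert sequence. In other peaks they numbered 8.72 per kb, against 9.44 per kb in other autosomal sequence. No CG at all was found in 18.2% of members and 14.9% of other peaks. Of the bases of members 16.4% were soft-masked as repeats, against 38.9% of desert sequence and 19.8% of the bases of other peaks.

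Long non-coding RNA genes overlapped members more often than their share of sequence. Of the members, 356 (17.8%) lay in the body of such a gene, and these bodies made up 10.1% of desert sequence. Among the other autosomal peaks 8.28% lay in such a body, but the share of other autosomal sequence in such bodies was not measured. Within 1 kb of the start of one lay 30 members (1.50%), a share with no comparison measured. These differences were not tested. The groups beside HoxD on the Mtx2 side and beyond the 3′ end of Meis1 are among those that overlap such genes. How much of the share came from such groups was not measured.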

How the data were processed

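H3K27me3 peak lists of 2 MEL replicates on mm10 were analysed. Per the deposited text descriptions, each replicate's list was called on its own alignments against 1 shared control alignment, and the pooled list on both together. The replicated list is the authors' selection from these 3. The aligner, peak caller and selection rule were not given in the sources used here. Each peak has the authors' signal value, a score whose definition is not stated, and the −log10 p and −log10 q deposited by the authors. The lists hold no counts of reads, so depth is unknown. The mm9 list was not used.

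Genes were those of GENCODE mouse release 21, with 20807 protein-coding genes on autosomes, and the sequence that of NCBI for GRCm38. Distances ran from the peak midpoint to the nearest gene body. Desert share was compared with 1000 circular shifts per chromosome along sequence without gaps, in a two-sided permutation test. An overlap needed 1 bp. Intervals are exact Clopper-Pearson 95% intervals. The shift test was also run on simulated peaks in small clusters at random positions, which do not copy the long tracts of these data. Python 3.11.15 with numpy 2.4.6, pandas 2.3.3 and scipy 1.17.1 was used.

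Named genes are those on either side of the 10 groups (joined within 10 kb) with the most covered bases, the nearest genes of the 3 farthest peaks, non-coding genes in those groups, and up to 4 genes per gene list by covered bases. Other genes, such as those of further deserts rich in peaks and of the strongest peaks, were named after their values were seen. The members and lists were chosen with earlier results of these data known. Alternatives were the distance limit, stricter peaks, the pooled list, each replicate's list, genes of every type, whole-chromosome shifts, leaving out chromosome 11, joining distances and the overlap needed.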

Additional observations from a re-analysis of the deposited data

How the results depend on the processing

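Under 12 alternatives for the count and 11 for the covered bases, all 23 ratios to the shifts stayed below 1 with a permutation p of 0.0020, the smallest possible. The count ratio ran from 0.0568, with genes of every type bounding the deserts (128 peaks), to 0.381 with a limit of 50 kb (4699 peaks). It was 0.106 with a limit of 200 kb and 0.131 for peaks with a −log10 q of at least 2. For bases the range was 0.0494 to 0.362, and the rule that the whole peak lie beyond the limit was run for the count only. Without replicate 1 or replicate 2 the count ratio was 0.292 and 0.247, and the base ratio 0.266 and 0.223.

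The share of members overlapping both replicates was 48.5% when 50% of the peak had to be covered, 91.1% for a −log10 q of at least 2, 78.9% for the upper 50% by signal value and 35.0% in the pooled list. The share in domains of several peaks was 54.9% joined within 1 kb, 84.3% within 10 kb and 77.3% in the pooled list. The share with a −log10 q of at least 2 was 3.25% in the pooled list and ran from 7.74% to 24.5% in the own lists, which stand for leaving a replicate out. The median width was 267 bp at 50 kb, 264 bp at 200 kb, 205 bp in the pooled list and 170 to 171 bp in the own lists. The cause of these changes was not tested beyond what each setting does by construction. No paired analysis was possible because the study has 1 group. Depth is unknown, so how far it sets the counts was not tested.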

Other observations

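Desert peaks were more frequent among weak peaks than among strong ones. With the replicated list split into 4 equal classes by −log10 p, deserts held 6.26%, 6.07%, 5.31% and 3.88% of peaks from the weakest class to the strongest. Replicate 1 gave 6.99%, 7.14%, 6.63% and 5.18%, and replicate 2 gave 8.20%, 8.77%, 7.88% and 6.16%, so the strongest class was the lowest in each list. No class came near the 27.7% of autosomal sequence that is desert. These shares are descriptions of peaks, with no test.

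Of the 1998 members, 128 lay more than 100 kb from any annotated gene, non-coding genes and pseudogenes included. The distance to the nearest protein-coding gene thus placed in deserts many peaks that have an annotated non-coding gene within that range.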
